A study of Mus musculus with 6 samples.

Results

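The interleukin-1 (IL-1) family and its receptors were followed through 10 genes: the ligands Il1a, Il1b, Il33 and Il18, the receptor antagonist Il1rn, the receptor chains Il1r1, Il1r2, Il1rap and Il1rl1, and the inflammasome sensor Nlrp3. They were taken by symbol from the 32285 genes of the deposited single-cell matrices, and each of the 10 symbols matched 1 gene. The cells were mononucleated cells of the tibialis anterior, a muscle of the lower leg, from both hindlimbs of wildtype mice, sorted to leave out dead cells that took up propidium iodide. There were 6 groups of 1 droplet library each: muscle not yet injured (day 0) and muscle 1 and 3 days after cardiotoxin, a snake venom toxin that destroys muscle fibres, each collected at ZT4 and at ZT16, where ZT is zeitgeber time, the hours since lights-on. The series title places the study in work on the stem cell circadian clock and muscle repair. The strain, age, sex and number of the mice, and the clock hour of the injury, are not given in the sources used here. With 1 library per group no difference has a replicate check, no test was made and no p-value is given. Intervals are exact 95% Poisson or binomial intervals and cover counting error only.

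IL-1α and IL-1β, the products of Il1a and Il1b, signal through a receptor made of the Il1r1 and Il1rap chains, which recruits the adaptor MyD88 and IRAK kinases and switches on NF-κB target genes such as neutrophil-attracting chemokines. Il1rn encodes a secreted antagonist that occupies the Il1r1 chain without signalling, and Il1r2 encodes a decoy receptor that binds IL-1 without signalling. IL-33 acts through the Il1rl1 product (ST2) paired with the Il1rap product, and is known in muscle as a stromal signal to regulatory T cells. The Nlrp3 product assembles an inflammasome, a caspase-1 platform that cleaves the precursors of IL-1β and IL-18.

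The genes lie at the following positions (mm10, annotation GENCODE vM21). Il1a is at chr2:129299610-129309972 and Il1b at chr2:129364570-129371139, both on the minus strand. The others are on the plus strand: Il1rn at chr2:24336853-24351494, Il1r2 at chr1:40074079-40125231, Il1r1 at chr1:40225080-40317257, Il1rl1 at chr1:40429570-40465415, Il1rap at chr16:26581704-26730117, Il33 at chr19:29925114-29960718, Il18 at chr9:50554827-50581840 and Nlrp3 at chr11:59541568-59566956. Counted genes on the opposite strand overlap Il1a (Gm14023), Il1b (Il1bos), Il1r2 (Gm16894), Il1rap (Gm20319) and Il18 (Bco2 and Tex12). The sources used here do not say whether the counting used strand, so reads of these pairs may not be separable.

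Promoters are shown for their motifs, from RefSeq (GRCm38.p6), as the 250 bases before an annotated start, 5′ to 3′ on the gene's strand. Shown are Il1b, Il1rn and Nlrp3, with the largest whole-library differences of day 1 from day 0. Il1rl1, which differed little in whole libraries but strongly within single cell classes, is shown too. The windows searched also held the first 50 bases after the start, on both strands, for 3 motifs: an NF-κB type site (GGG, any 3 bases, then TTCC) found in 5.56% of 32851 promoter windows of the same length, TTGCNNAA, a C/EBP type site found in 10.8%, and GAGGAAG, a PU.1 type site found in 13.6%. Capitals mark matches on either strand.
Il1b, 250 bases before the start: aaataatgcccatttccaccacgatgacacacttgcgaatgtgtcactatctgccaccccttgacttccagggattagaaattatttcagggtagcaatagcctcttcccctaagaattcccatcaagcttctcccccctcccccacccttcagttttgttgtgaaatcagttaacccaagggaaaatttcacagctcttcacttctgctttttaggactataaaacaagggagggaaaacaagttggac
Il1rn, 250 bases before the start: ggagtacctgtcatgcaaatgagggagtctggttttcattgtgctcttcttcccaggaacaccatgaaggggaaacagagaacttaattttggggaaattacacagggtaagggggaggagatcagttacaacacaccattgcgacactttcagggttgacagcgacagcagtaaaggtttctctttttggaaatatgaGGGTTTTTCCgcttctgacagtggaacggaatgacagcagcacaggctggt
Nlrp3, 250 bases before the start: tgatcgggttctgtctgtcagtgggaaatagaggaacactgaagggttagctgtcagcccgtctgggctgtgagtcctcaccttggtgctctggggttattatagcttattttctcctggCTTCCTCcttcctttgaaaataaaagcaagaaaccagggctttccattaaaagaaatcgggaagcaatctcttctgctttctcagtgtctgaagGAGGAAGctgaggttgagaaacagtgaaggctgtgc
Il1rl1, first start, 250 bases before: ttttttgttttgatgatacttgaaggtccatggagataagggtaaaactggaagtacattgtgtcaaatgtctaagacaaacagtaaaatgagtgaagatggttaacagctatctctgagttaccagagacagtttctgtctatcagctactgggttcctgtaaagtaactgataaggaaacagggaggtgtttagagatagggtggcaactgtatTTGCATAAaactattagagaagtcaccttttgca
Il1rl1, second start, 250 bases before: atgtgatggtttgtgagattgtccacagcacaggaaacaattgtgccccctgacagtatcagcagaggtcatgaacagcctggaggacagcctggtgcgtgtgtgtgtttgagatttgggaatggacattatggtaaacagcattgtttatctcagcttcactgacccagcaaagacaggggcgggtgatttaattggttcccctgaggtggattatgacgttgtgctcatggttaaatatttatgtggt
The Il1b window is chr2:129371140-129371389 (minus strand) and had no match to the 3 motifs. The Il1rn window shown, for 1 of 3 annotated starts, is chr2:24345121-24345370 (plus) and holds GGGTTTTTCC from base -51. The same match lies at base 30 from the overlapping start, with the window chr2:24345041-24345290, and the start with the window chr2:24336610-24336859 has GGGCAGTTCC from base -4. The Nlrp3 window shown, for 1 of 2 annotated starts, is chr11:59542436-59542685 (plus) and holds GAGGAAG from base -36 and its reverse complement from base -130. The other start, with the window chr11:59541319-59541568, had no match. Il1rl1 has a first start with the window chr1:40429320-40429569 (plus), with TTGCATAA from base -34, and a second start with the window chr1:40439379-40439628 (plus) and no match before it. A match is a run of letters and not a shown binding site. The libraries count the 3′ ends of transcripts, so they tell neither which start was used nor the soluble from the membrane form of ST2.

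The libraries held 8626 to 14079 barcodes and 72747703 to 132221721 unique molecular identifiers (UMIs, each 1 captured transcript). Quality limits and doublet removal left 58469 cells of 68724 barcodes, with a median of 3173 to 11125 UMIs per cell, lowest on day 1 at ZT4 and highest on day 3. In all, 562 barcode sequences occurred in more than 1 library, 21 to 65 for each pair of libraries. Cells fell into 41 clusters, named "-like" from marker genes that include none of the 10 genes, and 4 clusters stayed unnamed. The makeup differed strongly between days: neutrophil-like cells numbered 3 (ZT4) and 7 (ZT16) on day 0, then 4814 and 4221, then 282 and 173 by day 3, and fibro-adipogenic-like cells, the stromal progenitors of muscle, numbered 3027 and 2452, then 76 and 107, then 490 and 410.

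Summed over whole libraries and expressed as CPM (UMIs scaled to a common library total), Il1b stood at 65.0 CPM (ZT4) and 66.2 CPM (ZT16) on day 0, at 4034 and 3498 CPM on day 1, and at 655 and 599 CPM on day 3. Both day 1 libraries lay far above all others and both day 3 libraries lay between them and day 0. Day 1 was 62.1-fold above day 0 at ZT4, a log2 difference of 5.96 (interval 5.92 to 5.997), and 52.9-fold at ZT16, 5.72 (5.69 to 5.76). Day 3 was 6.16-fold and 5.84-fold below day 1, and still 10.1-fold and 9.06-fold above day 0. Averaging CPM over all single barcodes, in place of sums, gave larger day 1 differences from day 0, 7.17 and 7.56. In whole-library sums fewer cells of a type and less RNA per cell cannot be told apart.

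The antagonist Il1rn showed the largest whole-library difference of the 10 genes between day 0 and day 1. It stood at 1.49 and 1.91 CPM on day 0 (114 and 157 UMIs), at 419 and 203 CPM on day 1, and at 31.1 and 34.2 CPM on day 3. The day 1 level was 280.2-fold above day 0 at ZT4 (log2 8.13, 7.87 to 8.42) and 105.8-fold at ZT16 (6.73, 6.50 to 6.97). Averaged over all single barcodes these were log2 8.77 and 8.17. On day 3 it remained 20.8-fold and 17.9-fold above day 0.

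Il1a, Il1r2 and Nlrp3 followed the same order of days, with both day 1 libraries highest. Il1a, the ligand that is active without inflammasome cleavage, read 0.640 and 0.426 CPM on day 0, 24.6 and 15.3 CPM on day 1, and 2.52 and 4.28 CPM on day 3. The decoy receptor Il1r2 read 8.85 and 7.62 CPM, then 257 and 154 CPM, then 10.7 and 9.06 CPM, so its day 3 levels lay within 2-fold of day 0. Nlrp3 read 4.96 and 3.23 CPM, then 214 and 160 CPM, then 24.8 and 22.97 CPM.

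The accessory chain Il1rap was also highest on day 1 but by less, with 10.9 and 11.96 CPM on day 0, 39.2 and 22.3 CPM on day 1 and 5.43 and 5.43 CPM on day 3. The signalling receptor Il1r1 and the ligand Il33 had the opposite order, lowest on day 1. Il1r1 read 30.1 and 24.4 CPM, then 7.66 and 6.07 CPM, then 17.6 and 16.8 CPM. Il33 read 56.2 and 56.9 CPM, then 6.42 and 4.64 CPM, then 13.1 and 13.6 CPM, so day 1 lay 8.74-fold and 12.2-fold below day 0.

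Il18 and Il1rl1 differed least between day 0 and day 1 in these sums. Il18 read 28.3 and 16.9 CPM on day 0, 27.6 and 21.1 CPM on day 1 and 42.7 and 45.3 CPM on day 3. Il1rl1 read 11.9 and 6.50 CPM, then 7.74 and 7.73 CPM, then 3.91 and 5.68 CPM. The cells behind these flat sums differed between days, as described below for each gene.

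Counting differences of at least 2-fold among genes with 30 or more UMIs in the 2 libraries together, 6 of the 10 genes were higher and 2 lower on day 1 than on day 0 at ZT4, where 13.5% of 16098 genes were higher and 39.8% lower. At ZT16 the counts were 5 higher and 2 lower, beside 12.7% and 38.5% of all genes. The median log2 difference of the 10 genes was 3.35 at ZT4 and 2.62 at ZT16, and that of all genes was -0.54 and -0.51, a shift against which single values can be read. From day 1 to day 3, 2 of the 10 were higher and 6 lower at ZT4 (26% and 9.77% of all genes), and 3 higher and 6 lower at ZT16 (23.4% and 6.69%). Day 3 against day 0, which uses the same day 0 libraries as day 1 against day 0, gave 4 higher and 3 lower at ZT4 (13.1% and 29.9% of all genes) and 5 higher and 2 lower at ZT16 (14.5% and 29.5%).

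Between collection times the differences were small. No gene of the 10 was 2-fold apart between ZT16 and ZT4 on day 0, beside 5.82% of all genes, nor on day 3, beside 2.26%. On day 1 it was 1 gene, Il1rn, 2.07-fold lower at ZT16 (log2 -1.05, -1.07 to -1.02), beside 4.87% of genes 2-fold apart. On day 1 the ZT16 values of Il1a, Il1r2, Il1rap, Nlrp3, Il33, Il18 and Il1r1 were lower too, by less than 2-fold. Il1b was at log2 -0.21 and Il1rl1 at -0.003. The kept cells of that day also differed in depth, with a median of 3173 UMIs at ZT4 and 4600 at ZT16, and the part of depth in these values was not tested.

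**Figure D1:**
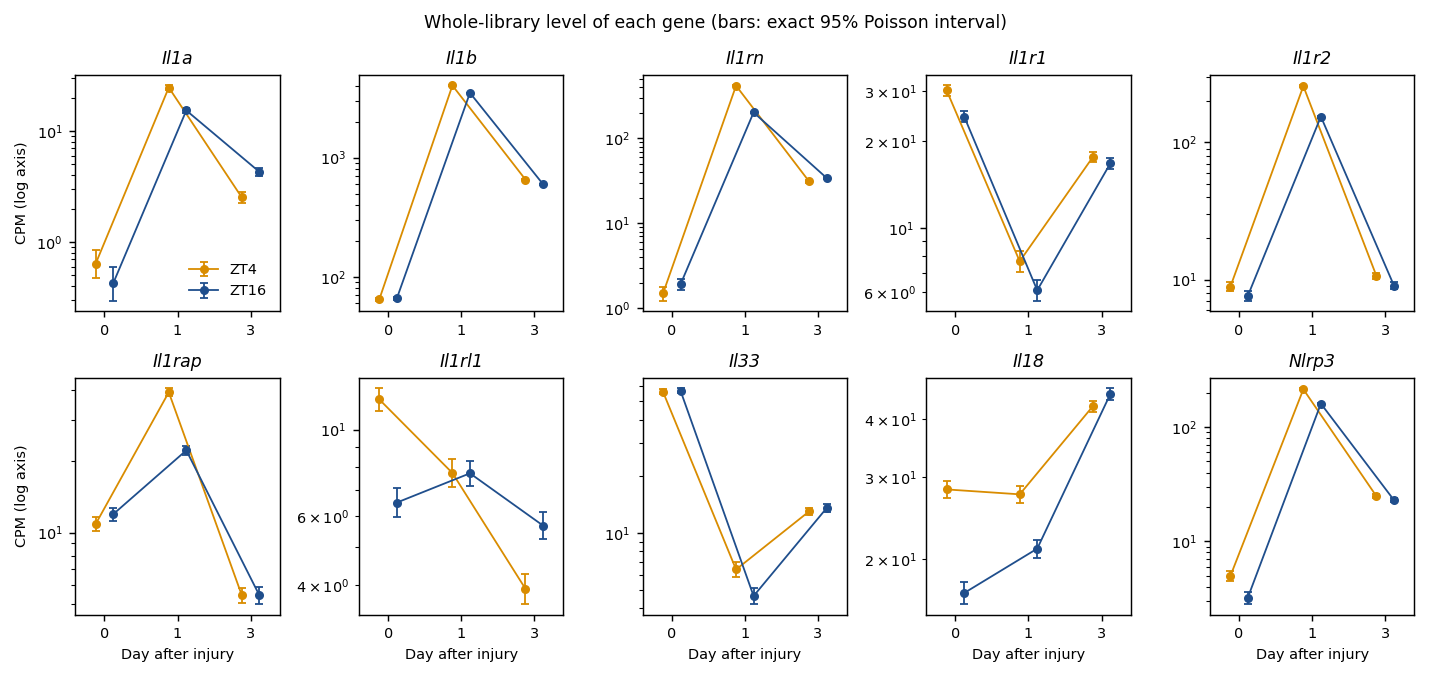
Whole-library level of each of the 10 genes (CPM, log axis) against day after injury, with ZT4 and ZT16 libraries as separate points joined by lines and exact 95% Poisson intervals as bars. Il1a, Il1b, Il1rn, Il1r2, Il1rap and Nlrp3 are highest in the day 1 libraries, and Il1r1 and Il33 are lowest there (7.66 and 6.07 CPM, and 6.42 and 4.64 CPM).

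Among 57 sums of a class in a library (classes of at least 50 kept cells), 5 of the 10 genes were highest in neutrophil-like cells: Il1a, Il1b, Il1rn, Il1r2 and Nlrp3. Il1r1 and Il1rl1 were highest in day 1 fibro-adipogenic-like cells, Il33 in mesothelial-perineurial-like cells of day 0, Il18 in day 3 monocyte-macrophage-like cells and Il1rap in glial-like cells of day 0. The ligands Il1a and Il1b were thus highest in other classes than the signalling receptor Il1r1. The day 1 neutrophil-like cells held 4 and 9 Il1r1 UMIs in all 4814 and 4221 cells, and monocyte-macrophage-like cells stayed between 0.14 and 0.87 CPM of Il1r1 in every library.

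**Figure D2:**
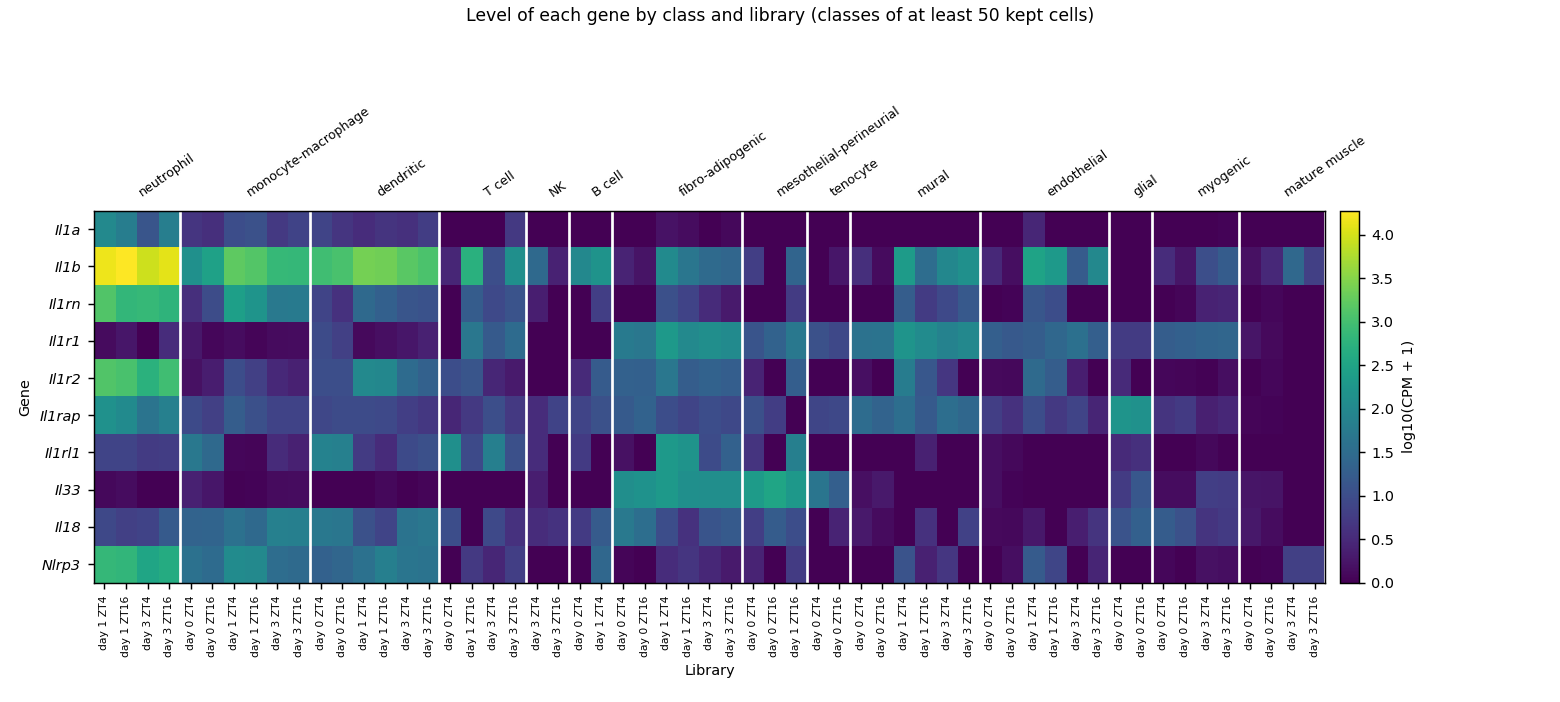
Level of the 10 genes (log10 of CPM + 1, colour) in each cell class and library with at least 50 kept cells. Il1a, Il1b, Il1rn, Il1r2 and Nlrp3 are brightest in neutrophil-like cells, Il1r1 and Il33 in stromal classes, and Il1rap also in glial-like cells of day 0 (164 and 146 CPM).

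In uninjured muscle, Il1b came mainly from dendritic-like and monocyte-macrophage-like cells. Dendritic-like cells, 124 and 121 in number, held 932 and 1134 CPM and 45.2% and 41.5% of the Il1b UMIs of kept cells. Monocyte-macrophage-like cells held 137 and 277 CPM, a 2.02-fold higher level at ZT16. A small unnamed cluster led by Retnla, Lyz1 and Ear2, with markers of both classes too few to name it, held 378 and 819 CPM.

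On day 1, neutrophil-like cells held 14920 and 18884 CPM of Il1b and 68.6% and 69.4% of its UMIs. Day 1 monocyte-macrophage-like cells held 1673 and 1344 CPM and dendritic-like cells 2391 and 2239 CPM. On day 3 the neutrophil-like cells still held 8821 and 12663 CPM, but with their small number only 7.52% and 8.44% of the UMIs, while monocyte-macrophage-like cells (734 and 711 CPM) held 53.3% and 64.1%. Within classes the log2 difference of day 3 from day 1 was -0.76 and -0.58 in neutrophil-like cells and -1.19 and -0.92 in monocyte-macrophage-like cells, smaller than the whole-library differences of -2.62 and -2.55.

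Within monocyte-macrophage-like cells the day 1 level of Il1b was 12.2-fold above day 0 at ZT4 and 4.85-fold at ZT16, and that of Il1rn 91.5-fold and 17.7-fold. With doublets kept the log2 differences were smaller, 2.88 in place of 3.61 for Il1b at ZT4, and 4.998 and 3.08 in place of 6.52 and 4.15 for Il1rn. Il1rn in that class read 2.76 and 8.93 CPM on day 0 (19 and 45 UMIs), 259 and 160 CPM on day 1, and 52.4 and 54.6 CPM on day 3. Of the 8 genes with enough UMIs in this class, 6 were 2-fold higher and 1 lower on day 1 at ZT4, beside 10.2% and 29.3% of all genes, and 5 and 1 at ZT16, beside 9.22% and 28%. Different clusters held the class on each day, so these are differences between cell populations as well as days. On day 0 it was cluster 14, led by Cd209f, Cd209g and Timd4. On day 1 it was clusters 0 (Ppbp, Arg1, Cxcl3) and 5 (Dmkn, Cd177, Vcan), and on day 3 clusters 1 (Gpnmb, Cd5l), 6 (Ifit1bl1, Cxcl10, Ifit2) and 8 (Cbr2, Ccl8, Il10).

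From day 1 to day 3 the class had 6 of 9 tested genes lower and 1 higher at ZT4, where 8.93% of all genes were lower and 19.1% higher, and 3 of 8 lower and 2 higher at ZT16, where the shares were 8.03% and 17.7%. Nlrp3 read 37.9 and 30.8 CPM on day 0, 116 and 103 CPM on day 1 and 32.6 and 29.0 CPM on day 3, so its day 3 level was within 2-fold of day 0. Il1b and Il1rn, in contrast, stayed 5.35-fold and 2.56-fold, and 18.5-fold and 6.05-fold, above day 0.

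Shares of cells with a UMI were compared after each cell was thinned to 1000 UMIs. An Il1b UMI was found in 90.04% (89.2% to 90.9%) and 95.9% (95.2% to 96.5%) of day 1 neutrophil-like cells, and unthinned in 93.1% and 97.1%. The thinning left out 35 and 44 shallower neutrophil-like cells. In monocyte-macrophage-like cells the thinned share was 4.9% and 9.56% before injury, 54.4% and 46.4% on day 1, then 33.04% and 32.6% on day 3. Unthinned, it was 10.1% and 13.2%, 79.5% and 74.4%, and 59.3% and 58.4%. Fibro-adipogenic-like cells, used as a class that should lack Il1b, had a thinned share of 3.95% and 2.80% on day 1, where the median depth was 18789 and 21435 UMIs, and 2349 and 2474 in neutrophil-like cells.

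Low Il1b in day 1 stromal and vascular cells is given beside an estimate of the RNA free in the droplets. Fibro-adipogenic-like cells held 112 and 47.3 CPM on day 1, and after subtraction of the estimated free RNA 7.60 and 22.4 CPM. Endothelial-like cells held 305 and 193 CPM, and 230 and 91.3 CPM after subtraction. No order among these classes is read from Il1b.

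The 4 neutrophil-like clusters of day 1 differed in their balance of Il1b and its antagonist. Cluster 15, led by Pdcd1lg2, Rab15, Ltf and Il1f9 (the older symbol of Il36g), held 2816 and 4397 CPM of Il1b, while clusters 3, 4 and 26 held 17825 to 20490 CPM. Its Il1rn was the highest, 3239 and 2520 CPM, beside 565 and 383 CPM in cluster 3 (Retnlg, Stfa2l1), 1006 and 619 CPM in cluster 4 (Siglecf, Nt5e) and 939 and 535 CPM in cluster 26 (Slfn4, Ifit1bl2). At ZT4 and ZT16 cluster 15 made up 22.2% and 9.93% of the neutrophil-like cells of day 1 and held 4.04% and 2.23% of their Il1b UMIs, but 53.6% and 35.3% of their Il1rn UMIs. The 10 genes were kept out of the clustering.

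The same cluster was low in the decoy receptor Il1r2 (405 and 398 CPM, against 1180 to 1690 CPM in the other 3 clusters) and in Nlrp3 (465 and 282 CPM, against 637 to 794 CPM). Il1a was highest in cluster 4 at ZT4, with 203 CPM, and read 98.4 CPM there at ZT16. In cluster 3 Il1a read 34.9 and 28.1 CPM. Thinned to 1000 UMIs, 85.4% and 75.9% of cluster 15 cells had an Il1rn UMI, against 32.1% and 23.9% of cluster 3 cells, and 56.9% and 59.8% had an Il1b UMI, against 99.8% and 99.9% in cluster 3. Cluster 15 had a median of 2317 UMIs per cell over all libraries and 7 of 9 neutrophil markers detected.

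**Figure D3:**
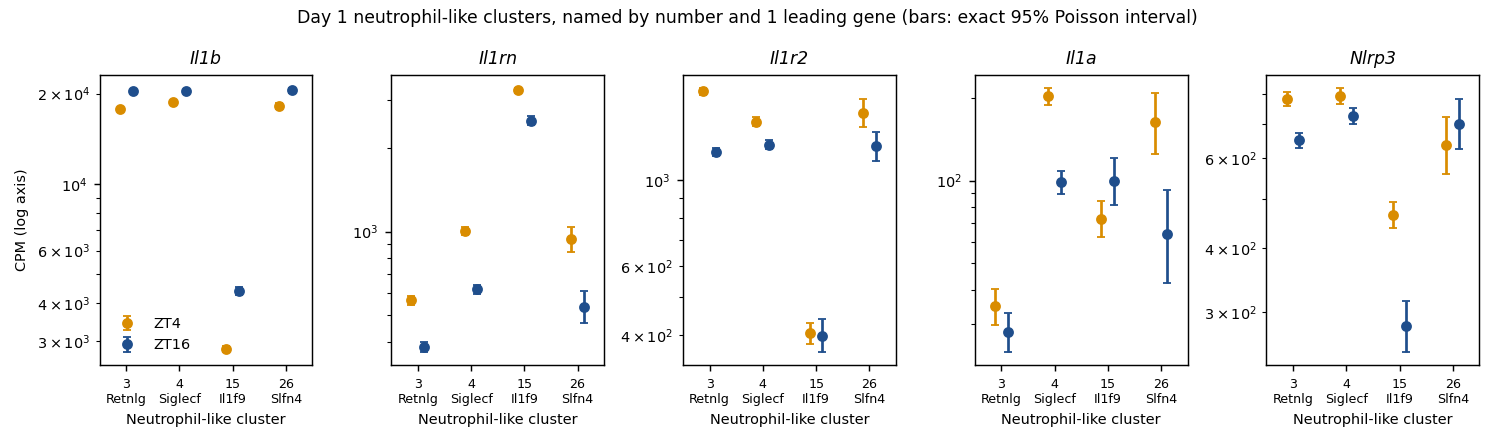
Levels of Il1b, Il1rn, Il1r2, Il1a and Nlrp3 (CPM, log axes) in the 4 neutrophil-like clusters of day 1 at ZT4 and ZT16, with exact 95% Poisson intervals as bars. Cluster 15 is lowest for Il1b (2816 and 4397 CPM), Il1r2 and Nlrp3, and highest for Il1rn (3239 and 2520 CPM).

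The difference in Il1rn between collection times on day 1 was found in neutrophil-like cells (1294 CPM at ZT4 and 684 CPM at ZT16, 1.89-fold lower) and in monocyte-macrophage-like cells (259 and 160 CPM, 1.62-fold lower). Il1rn was lower at ZT16 in each of the 4 neutrophil-like clusters, and cluster 15, where it is highest, was also the smaller part of the class at ZT16. Neither class reached 2-fold. None of the 8 genes with enough UMIs did so in neutrophil-like cells between collection times on day 1, beside 3.95% of all genes, and Il1b went the other way, by log2 0.34. In day 3 neutrophil-like cells 1 of 6 tested genes was 2-fold higher at ZT16, beside 2.47% of all genes. That gene was Il1a, with 8 UMIs at ZT4 and 26 at ZT16.

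The decoy receptor Il1r2 changed its main holder with the days. On day 0 fibro-adipogenic-like cells held 93.3% and 91.2% of its UMIs, at 20.2 and 19.7 CPM. On day 1 neutrophil-like cells held 94.3% and 93.5%, at 1316 and 1127 CPM, and on day 3 their level was 527 and 906 CPM. No class held most of the day 3 UMIs: neutrophil-like cells had 27.4% and 39.5%, dendritic-like cells 45.3% and 29.9%, and fibro-adipogenic-like cells 17.2% and 18.8%. In dendritic-like cells Il1r2 read 9.69 and 9.63 CPM on day 0, 102 and 93.8 CPM on day 1, and 29.7 and 20.4 CPM on day 3.

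The dendritic-like class as a whole had 3 of 7 tested genes 2-fold higher and 2 lower on day 1 than on day 0 at both collection times, beside 7.25% and 10.3% of all genes at ZT4 and 5.74% and 11.4% at ZT16. Il1r2 was among the higher ones, by log2 3.35 and 3.24, and Il1rl1 and Il18 were the lower ones. Most of these cells were in cluster 7 (Cd209a, Cd7, Klrb1b), with 60.8% to 87.9% of the class in every library. Cluster 21, led by the proliferation genes Nusap1 and Mki67, made up 9.68% and 24.0% of it before injury, 2.63% and 8.1% on day 1, then 32.2% and 28.0% by day 3. The Il1rn value of this class depended on the cluster resolution at ZT16: log2 2.54 between day 0 and day 1, and -0.62 or -0.49 at coarser or finer clustering.

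Among neutrophil-like cells, the day 3 levels were 2-fold lower than day 1 for 4 of 8 tested genes at ZT4 and for none at ZT16, where 1 was higher. Of all genes 5.75% were lower and 35% higher at ZT4, and 5.14% lower and 29% higher at ZT16. The 4 genes were Il1a, Il1r2, Il1rap and Nlrp3. The median of all genes in this comparison was 0.64 at ZT4 and 0.55 at ZT16, so centred on it the values are lower still, -1.96 in place of -1.32 for Il1r2. The day 0 libraries had too few neutrophil-like cells for a comparison with them.

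Nlrp3 was highest in the same cells as Il1b. Neutrophil-like cells held 713 and 645 CPM on day 1 and 327 and 421 CPM on day 3, above monocyte-macrophage-like cells (116 and 103 CPM on day 1) and dendritic-like cells (38.5 and 70.2 CPM). In uninjured muscle 82.1% and 66.5% of the Nlrp3 UMIs were in monocyte-macrophage-like cells. After thinning, 40.9% and 38.8% of day 1 neutrophil-like cells had a Nlrp3 UMI, beside 10.4% and 9.39% of monocyte-macrophage-like cells. Unthinned, the neutrophil-like shares were 60.1% and 61.0%.

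The receptor Il1r1 was held by stromal classes on every day, and its lower whole-library level on day 1 went with a higher level in the cells that carry it. In fibro-adipogenic-like cells it read 57.4 and 49.3 CPM on day 0, 204 and 104 CPM on day 1 and 127 and 110 CPM on day 3. All 4 libraries of injured muscle lay above both of uninjured muscle. Day 1 was 3.55-fold above day 0 at ZT4 (log2 1.83, 1.65 to 2.0) and 2.11-fold at ZT16 (1.08, 0.88 to 1.27).

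The number of these cells was 76 and 107 on day 1 against 3027 and 2452 on day 0, and they still held 72.3% and 55.4% of the Il1r1 UMIs. Thinned to 1000 UMIs, an Il1r1 UMI was found in 5.398% and 4.73% of day 0 fibro-adipogenic-like cells, in 26.3% and 12.2% of those of day 1 and in 10.2% and 9.31% of those of day 3. Monocyte-macrophage-like cells, the comparison class, stayed at or below 0.09%. On day 1, Il1r1 was 1.96-fold lower at ZT16 than at ZT4 (log2 -0.97, -1.21 to -0.73), over few cells.

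Mural-like cells, which wrap small vessels, had a similar order for Il1r1, with 40.2 and 41.6 CPM on day 0, 162 and 115 CPM on day 1, and 76.7 and 98.7 CPM on day 3. The day 1 values rest on 57 and 76 UMIs and lay 4.03-fold and 2.78-fold above day 0. Endothelial-like cells read 18.4 and 14.8 CPM, 17.4 and 25.9 CPM, and 37.0 and 18.9 CPM, which overlap between days. Myogenic-like cells, the muscle stem cells and their progeny, read 17.2 and 19.4 CPM on day 0 and 22.9 and 24.7 CPM on day 3, where they held 31.2% and 28.9% of the Il1r1 UMIs.

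Its partner chain Il1rap had another distribution. On day 0 it was highest in glial-like cells (164 and 146 CPM), which held 10.1% and 11.9% of its UMIs, while fibro-adipogenic-like cells (15.2 and 20.8 CPM) held 59.6% and 64.2%. On day 1 neutrophil-like cells held 146 and 109 CPM and 68.4% and 63.6% of the UMIs. In fibro-adipogenic-like cells Il1rap was lower on day 1, at 9.43 and 6.59 CPM (15 and 17 UMIs), and on day 3, at 9.08 and 7.48 CPM. So the 2 chains of the signalling receptor lay on opposite sides of their day 0 levels in these cells, although the interval of the Il1rap difference at ZT4 (-1.54 to 0.05) includes 0.

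Il33 was carried by fibro-adipogenic-like cells, with 86.3% to 94.9% of its UMIs in every library. In them it read 129 and 152 CPM on day 0, 207 and 134 CPM on day 1, and 127 and 130 CPM on day 3. No difference between days reached 2-fold in these cells, and the day 1 values lay on both sides of day 0 (log2 0.69 at ZT4 and -0.18 at ZT16). The lower whole-library level on day 1 therefore went with fewer fibro-adipogenic-like cells and not with a 2-fold lower level in them.

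As a share of their RNA, mesothelial-perineurial-like cells had a higher level of Il33, at 223 and 329 CPM on day 0 and 191 CPM on day 1 at ZT16. Their cluster, 25, had 4 of 6 own markers detected but also 8 fibro-adipogenic markers. Its median depth on day 0 was 2389 and 2019.5 UMIs. Estimated free RNA was 19.9% and 21.5% on day 0, the highest of the classes, and 0% on day 1 at ZT16. The class held 50 cells on day 1 at ZT16, but 3 at coarser clustering. The 191 CPM could therefore not be recomputed there. Among day 0 fibro-adipogenic-like clusters Il33 was highest in cluster 16 (Krtdap, Adamts16, Dact2), at 293 and 280 CPM. In myogenic-like cells Il33 read 0.383 and 0.386 CPM on day 0, from 2 and 3 UMIs, and 5.196 and 4.79 CPM on day 3, log2 differences of 3.45 (1.88 to 6.82) and 3.42 (2.04 to 5.94). Those cells held 9.74% and 6.87% of the day 3 Il33 UMIs.

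The IL-33 receptor gene Il1rl1 differed between days in opposite directions in stromal and myeloid cells. Mostly other clusters held the fibro-adipogenic-like and monocyte-macrophage-like classes after injury than on day 0, so these differences are also between cell populations. In fibro-adipogenic-like cells Il1rl1 read 0.564 and 0.0388 CPM on day 0 (16 UMIs and 1 UMI), 197 and 158 CPM on day 1 (314 and 409 UMIs), and 8.31 and 19.98 CPM on day 3 (87 and 187 UMIs). With 0.5 UMI added to each sum, the day 1 level was log2 8.41 (7.73 to 9.28) above day 0 at ZT4 and 11.41 (9.51 to 17.30) at ZT16. Il1rl1 UMIs were in 15 of 76 and 34 of 107 such cells on day 1 and in 37 of 490 and 40 of 410 on day 3. In each day 1 library 1 cell held 80 and 69 of these UMIs (25.5% and 16.9%), and without it the differences were 8.03 and 11.16. With doublets kept the ZT16 difference was 8.85, and averaged over single cells the ZT4 difference was 7.51.

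Several marker lists were summed over all fibro-adipogenic-like cells of day 1, with and without Il1rl1 UMIs. The sums therefore describe the class and cannot show what the cells with Il1rl1 are. All 11 fibro-adipogenic markers had UMIs, at 19875 and 11819 CPM in sum. The 8 mast cell markers gave 2 and 3 UMIs, with Cpa3, Mcpt4, Tpsb2, Ms4a2 and Mrgprb1 at 0 in both libraries, and the T cell markers gave 1 UMI and none. Neutrophil markers summed to 430 and 191 CPM, with Ly6g at 0, where whole libraries had 13719 and 8450 CPM. Neutrophil-like cells themselves held 6.55 and 6.62 CPM of Il1rl1 on day 1, below the fibro-adipogenic-like level. At finer clustering (resolution 2.0) a cluster with Il1rl1 among its leading genes stayed unnamed, with only 1 fibro-adipogenic marker detected.

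In monocyte-macrophage-like cells Il1rl1 read 51.4 and 27.8 CPM on day 0, 0.189 and 0.152 CPM on day 1 (8 and 9 UMIs), and 2.33 and 1.48 CPM on day 3. Both day 0 libraries lay above all 4 others, and day 1 differed from day 0 by log2 -8.001 (-9.31 to -7.09) and -7.44 (-8.67 to -6.55). Dendritic-like cells had the same order, with 78.7 and 71.0 CPM, then 4.47 and 2.39 CPM, then 8.29 and 10.1 CPM. Monocyte-macrophage-like cells held 48.2% and 38.0% of the Il1rl1 UMIs of day 0, dendritic-like cells 17.7% and 32.1%, and fibro-adipogenic-like cells 65.3% and 62.4% of those of day 1.

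Thinned to 1000 UMIs, an Il1rl1 UMI was found in 5.8% and 3.64% of day 0 monocyte-macrophage-like cells and in 0.0253% and 0% on day 1, and in 2.63% and 7.48% of day 1 fibro-adipogenic-like cells. Unthinned, the fibro-adipogenic-like shares on day 1 were 19.7% and 31.8%. T cell-like cells read 133 CPM on day 0 at ZT4 and 69.2 and 10.3 CPM on day 3. The order of the day 3 collection times reversed at coarser clustering. Cells with a Foxp3 UMI, the mark of regulatory T cells, numbered 1 to 13 per library among T cell-like cells, too few for a separate level. On day 0 they held 5 and 0 Il1rl1 UMIs, and T cell-like cells without a Foxp3 UMI held 67 and 27. On day 3 these numbers were 7 and 9 with a Foxp3 UMI, and 29 and 1 without. A cell without a Foxp3 UMI is not shown to lack Foxp3. Barcodes with at least 20 UMIs of the mast cell list numbered 3 to 28 per library and held 727 to 2638 CPM of Il1rl1, which was 5.25% to 29.2% of the gene's UMIs. That limit was chosen after the data were seen, and doublet removal had left out nearly all such barcodes of day 0, so the mast cell part of the day 0 level is outside the class values above.

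**Figure D4:**
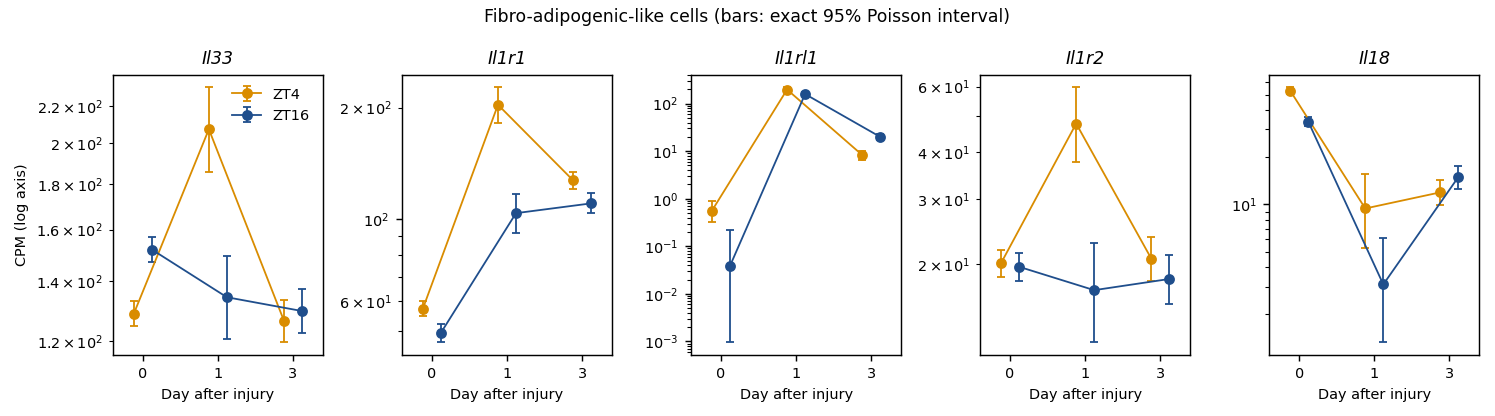
Levels of Il33, Il1r1, Il1rl1, Il1r2 and Il18 in fibro-adipogenic-like cells (CPM, log axes) against day after injury, ZT4 and ZT16 libraries separately, with exact 95% Poisson intervals as bars. Il1rl1 is at 0.564 and 0.0388 CPM on day 0 and at 197 and 158 CPM on day 1, Il1r1 is higher and Il18 lower in all injured libraries, and Il33 stays within 2-fold.

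Il18, which in whole libraries stayed level from day 0 to day 1, came from different cells on each day. Fibro-adipogenic-like cells held 78.3% and 71.2% of its UMIs on day 0, and monocyte-macrophage-like cells 91.7% and 94.2% on day 1 and 79.2% and 80.4% on day 3. In fibro-adipogenic-like cells it read 52.9 and 33.7 CPM on day 0, 9.43 and 3.10 CPM on day 1 (15 and 8 UMIs), and 11.9 and 14.95 CPM on day 3. In monocyte-macrophage-like cells it read 22.1 and 22.8 CPM, then 38.1 and 28.0 CPM, then 70.6 and 67.9 CPM, so day 3 was 3.19-fold and 2.96-fold above day 0. The 2 classes had opposite orders of day 0 and day 3 at both collection times.

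Within classes, Il18 was uneven. On day 0 the fibro-adipogenic-like cluster 16 held 147 and 114 CPM, cluster 10 (Gdf10, Inmt, C7) 26.7 and 16.7 CPM, and cluster 11 (Necab1, Gsta3) 5.64 and 2.53 CPM. That is the cluster that was also highest in Il33. On day 3, the monocyte-macrophage-like cluster 6, led by the interferon-induced genes Ifit1bl1, Cxcl10 and Ifit2, held 126 and 108 CPM. Dendritic-like cells read 51.5 and 46.3 CPM on day 0, 10.6 and 6.44 CPM on day 1, and 41.4 and 48.6 CPM on day 3, and myogenic-like cells 16.7 and 10.5 CPM on day 0 and 3.46 and 4.27 CPM on day 3.

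**Figure D5:**
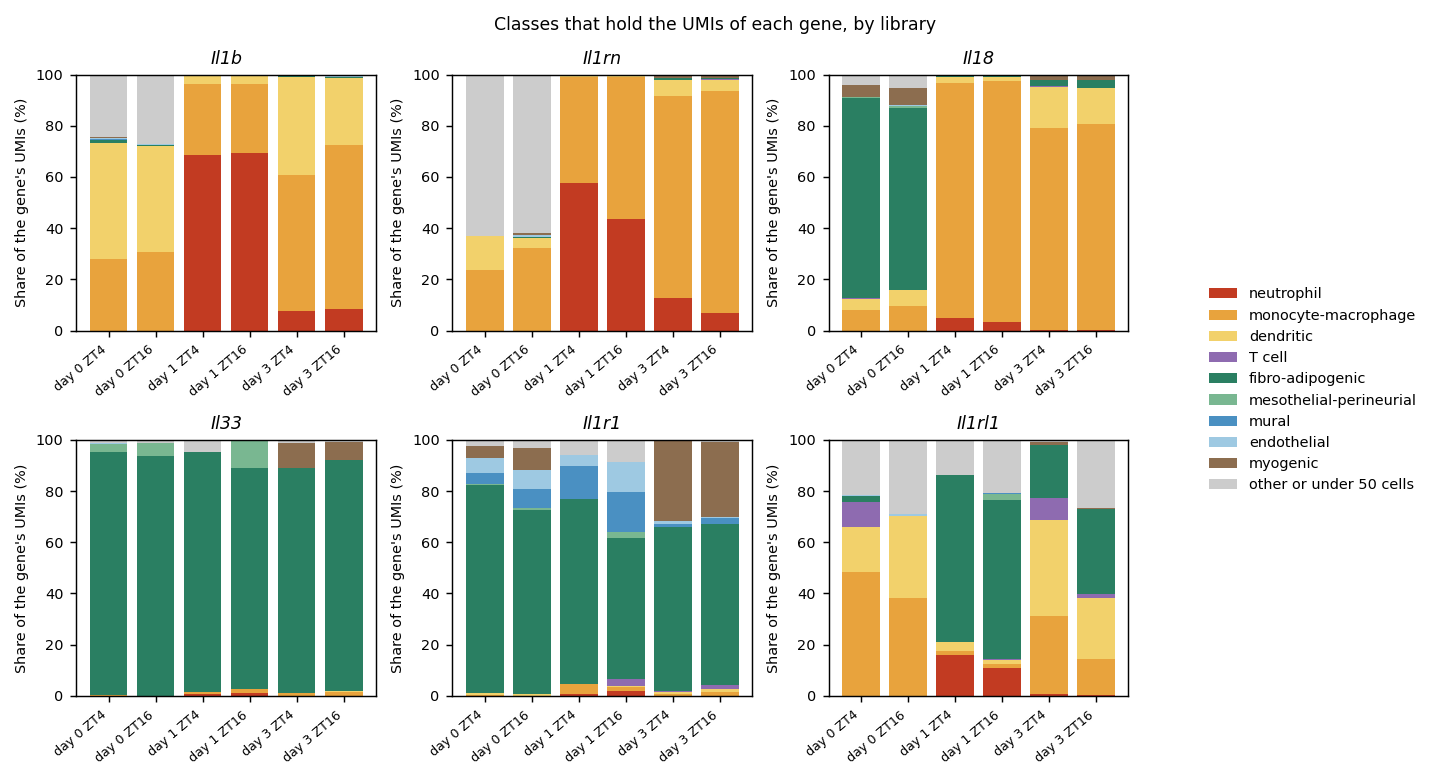
Share of each gene's UMIs in kept cells (%, stacked to 100) held by each class in each library, for Il1b, Il1rn, Il18, Il33, Il1r1 and Il1rl1. Fibro-adipogenic-like cells hold 86.3% to 94.9% of Il33 in every library, while the main holder of Il1b, Il1rn, Il18 and Il1rl1 differs between days.

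In fibro-adipogenic-like cells as a class, 4 of 7 tested genes of the 10 were 2-fold higher and 1 lower on day 1 than on day 0 at ZT4 (13.7% and 22.9% of all genes), and 3 higher and 2 lower at ZT16 (13.4% and 31.7%). Day 0 cells were in clusters 10, 11 and 16, and cells of days 1 and 3 mostly in cluster 20, led by Cxcl5, Lrrc15 and P4ha3. From day 1 to day 3, 4 of 8 were lower and none higher at ZT4 (12.1% and 12.6% of all genes), and 1 of 7 was lower and 1 higher at ZT16 (10.6% and 17.2%). Day 3 against day 0 gave 3 of 7 higher and 1 lower at ZT4 (10.3% and 15.8%), and 3 higher and 2 lower at ZT16 (10.2% and 17.3%). Il1b was among the higher genes on days 1 and 3 against day 0, and among the lower from day 1 to day 3 at ZT4. Its day 1 level in these cells was lower after subtraction of the estimated free RNA, as given above. On day 3, Il1rl1 was 2.396-fold higher at ZT16 than at ZT4, 1 of 9 tested genes in that direction, beside 1.17% of all genes.

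Other genes of the pathway were followed as 4 lists. Of 6 measured further ligands, receptors and binding proteins, 2 were 2-fold higher and 2 lower on day 1 than on day 0 at ZT4, and 3 higher and 2 lower at ZT16. The shares of all genes for the day 1 counts of these lists in whole libraries are those given above, 13.5% higher and 39.8% lower at ZT4 and 12.7% and 38.5% at ZT16, so the 2 lower members of this list are near the background. The ligand gene Il1f9 (Il36g) went from 0.157 and 0.0609 CPM to 57.2 and 16.01 CPM, and Il18rap, a chain of the IL-18 receptor, from 0.862 and 0.706 CPM to 44.1 and 24.1 CPM. Sigirr, an inhibitory receptor of the family, went from 10.2 and 9.11 CPM to 2.57 and 1.91 CPM, and Il1rl2, the IL-36 receptor, from 12.01 and 9.74 CPM to 3.49 and 3.17 CPM.

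Of 11 adaptors and kinases, 3 were higher and none lower at both collection times, beside 13.5% and 12.7% of all genes higher and 39.8% and 38.5% lower. These were Irak2 (9.34 and 8.54 CPM to 56.9 and 35.7 CPM), Irak4 and Myd88 (29.0 and 25.7 CPM to 74.2 and 60.8 CPM). Of 14 measured inflammasome and processing genes, 9 were higher and none lower at both collection times, with a median log2 difference of 1.25 and 2.16. Mefv, which encodes the sensor pyrin, went from 0.993 and 0.828 CPM to 66.7 and 28.5 CPM. Pycard, the adaptor that links sensors to caspase-1, went from 40.03 and 29.8 CPM to 326 and 429 CPM.

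Of 18 genes known to be induced by IL-1, 10 were higher and 2 lower at ZT4, and 9 higher and 2 lower at ZT16, with medians of 1.42 and 1.14 beside -0.54 and -0.51 over all genes. Cxcl2, a chemokine for neutrophils, went from 172 and 156 CPM to 5045 and 3374 CPM, and Ccl2, a chemokine for monocytes, from 164 and 114 CPM to 1361 and 2850 CPM. Many other signals also induce these genes, so the list does not isolate IL-1. From day 1 to day 3, 9 of the 18 were lower at ZT4 and 11 at ZT16, and none was higher, beside 9.77% and 6.69% of all genes lower and 26% and 23.4% higher.

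On day 1 Il1r1 was highest in fibro-adipogenic-like cells at ZT4, and at ZT16 in mural-like cells (115 CPM, beside 104 CPM in fibro-adipogenic-like cells). In fibro-adipogenic-like cells, 9 of 16 measured genes of the induced list were higher and none lower on day 1 at ZT4. At ZT16, 9 of 15 were higher and 1 lower. Of all genes 13.7% and 13.4% were higher and 22.9% and 31.7% lower. The medians of the induced list were 1.496 and 2.35, beside -0.16 and -0.41 over all genes. Cxcl5, a neutrophil chemokine, went from 0.247 and 0.466 CPM to 2692 and 2601 CPM, and it also leads cluster 20, which holds the day 1 and day 3 cells. Ccl2 went from 77.2 and 31.7 CPM to 2239 and 5484 CPM, and Cxcl2 from 2.996 and 2.06 CPM to 135 and 351 CPM. Free RNA made up an estimated 2.56% and 0.702% of these cells' UMIs on day 1. Of the 11 adaptors and kinases none was 2-fold apart at ZT4, and 4 were lower at ZT16 (Irak3, Traf6, Tollip and Tab1), near the 31.7% of all genes lower there.

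In monocyte-macrophage-like cells, 9 of 16 and 7 of 15 measured induced genes were higher and 3 lower at each collection time on day 1, beside 10.2% and 9.22% of all genes higher and 29.3% and 28% lower. Ptgs2, which makes prostaglandins, went from 8.997 to 165 CPM at ZT4, and Nfkbiz from 823 to 128 CPM. Their inflammasome list was split, with 3 of 12 higher and 4 lower at ZT4 and 3 higher and 3 lower at ZT16, and the shares lower are near those of all genes. Pycard was among the higher ones (124 and 112 CPM to 411 and 526 CPM) and the ATP receptor P2rx7 among the lower (81.1 to 15.6 CPM at ZT4).

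As a description of likeness, each gene's log2(CPM + 1) was correlated with that of all other genes over the 57 sums, which share libraries, depth and cells. The closest were Ncf1 for Il1b (Pearson r 0.913), Clec4e for Il1rn (0.935), S100a8 for Il1r2 (0.877), Nlrp1b for Il1a (0.944) and Bst1 for Nlrp3 (0.960). Fgf7 was closest to Il33 (0.955), Farp1 to Il1r1 (0.884), Xylt1 to Il1rap (0.845) and Tiam1 to Il18 (0.780). Il1rl1 had no close match, with Lrfn1 at 0.626. Among the 10 genes, Il1b and Nlrp3 had an r of 0.908.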

How the data were processed

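The 6 libraries were made with the 10x 3′ v3.1 chemistry. Per the submitters' processing notes the authors used Cell Ranger 1.0.0 with mm10, while the file headers name cellranger 6.1.2. The deposited values are raw UMI counts per gene and barcode, with no ambient RNA correction stated. Introns, strand and filtering settings are not given in the sources used here. The samples were grouped by the labels' day and collection time.

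Barcodes with at least 200 genes, 500 UMIs and at most 10% mitochondrial UMIs were kept. As scrublet's automatic threshold called almost no barcode in the day 3 libraries, the highest doublet scores were left out instead, 0.8% per 1000 barcodes. Cells were log-normalised and clustered (2000 variable genes without the 10 genes and the 54 pathway genes, 30 components, 15 neighbours, Leiden resolution 1.0). A cluster was named from at least 3 detected markers of a class. Clusters 12 and 19 (low depth), 29 (markers of 2 classes) and 35 (too few markers) stayed unnamed. UMIs were summed by class and library (at least 50 cells) as CPM. Whole-library sums used all barcodes.

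Log2 differences had 0.5 UMI added, with conditional binomial 95% intervals, and were counted past 2-fold where both groups together had 30 UMIs. Shares of cells used 1000 UMIs per cell. Free RNA was estimated from markers of other classes. No test was made, since each group of day and collection time holds 1 library, and no model across days and collection times was fitted. The log2 differences and their intervals were checked on simulated counts. The simulation drew counting error alone for well-counted genes in whole-library sums, so low counts in single classes were not checked.

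All 10 genes are described. Of each pathway list mainly the genes with the largest absolute log2 differences are named, with a few others chosen after their values were seen (Ccl2, Cxcl2, Pycard, Ptgs2, Nfkbiz, P2rx7). The closest gene by Pearson r is named for each member. Members and lists were chosen with earlier results of these data known. Alternatives changed doublet removal, cluster resolution, cell limits, count limits, fold limit, scaling and thinning. Tools were Python 3.11.15, numpy 2.4.6, scipy 1.17.1, pandas 2.3.3, scanpy 1.11.5, leidenalg 0.10.2, igraph 0.11.9 and scikit-learn 1.9.0.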

Additional observations from a re-analysis of the deposited data

Results flagged for a closer look

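For 2 of the genes, cell classes differed in opposite directions under the same contrast at both collection times. Mostly other clusters held the fibro-adipogenic-like and monocyte-macrophage-like classes after injury than on day 0. The differences are therefore between cell populations as well as days. The differences between classes were not tested, since each group is 1 library. Values are log2 differences, at ZT4 and then at ZT16.

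Il18 on day 3 against day 0 was higher in monocyte-macrophage-like cells (1.67 and 1.57) and lower in fibro-adipogenic-like cells (-2.14 and -1.17) and myogenic-like cells (-2.27 and -1.30).

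Il1rl1 on day 1 against day 0 was higher in fibro-adipogenic-like cells (8.41 and 11.41) and lower in dendritic-like cells (-4.10 and -4.83) and monocyte-macrophage-like cells (-8.00 and -7.44). On day 3 against day 0, which shares the day 0 libraries, it was higher in fibro-adipogenic-like cells (3.85 and 8.43) and lower in dendritic-like cells (-3.25 and -2.82) and monocyte-macrophage-like cells (-4.46 and -4.23). On day 3 against day 1 it was higher in monocyte-macrophage-like cells (3.54 and 3.21) and lower in fibro-adipogenic-like cells (-4.56 and -2.99).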

How the results depend on the processing

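No paired analysis was possible because the results come from no test: each group of day and collection time holds 1 library, its replicate number pairs nothing, and no model across days and collection times was fitted. Each result was recomputed under those alternatives in which its class kept the minimum number of cells per library. At the finer clustering the day 1 fibro-adipogenic-like class fell below that minimum. Its day 1 values, those of Il1rl1 and Il1r1 among them, were therefore not recomputed there, and their dependence on finer clustering was not tested. At that clustering a cluster led by Cxcl5, Crabp1 and Il1rl1 held 43 and 118 day 1 cells (ZT4 and ZT16). It stayed unnamed, with 1 fibro-adipogenic marker detected and under 3 markers of any class. How far its cells are those of the fibro-adipogenic-like class was not tested. Of 236 values of counts and shares that answer a comparison, 206 stayed within 1.5 times (or within the interval) and 30 moved. Of 4154 values of single genes, 3660 stayed within their limits, 480 moved and 14 changed sign. Where values moved or changed sign the cause was not tested.

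Pairs of a gene and a class 2-fold apart numbered 21 and 19 on day 1 against day 0 (ZT4 and ZT16), and 33 and 32 with doublets kept. On day 3 against day 1 at ZT16 they numbered 14, and 23 with doublets kept, 22 at a 10 UMI minimum and 26 at 1.5-fold. Between collection times they numbered 4 on day 0 (12 at 10 UMIs, 1 at 100 UMIs, 8 at 1.5-fold), 5 on day 1 (8 with doublets kept, 3 at resolution 2.0, 2 by mean per-cell CPM, 10 at 10 UMIs, 2 at 100 UMIs, 17 at 1.5-fold) and 6 on day 3 (2 at 100 UMIs, 17 at 1.5-fold). Pathway genes numbered 20 on day 3 against day 1 at each collection time, and 33 and 31 at 1.5-fold. Between collection times they numbered 3 on day 0 (5 at 10 UMIs, 1 at 100 UMIs, 8 at 1.5-fold) and 4 on day 1 (11 at 1.5-fold). Of the 10 genes in whole libraries, between collection times, there were 0 on day 0 (2 in kept barcodes alone, 3 at 1.5-fold), 1 on day 1 (4 at 1.5-fold) and 0 on day 3 (1 at 1.5-fold). The share of neutrophil-like cells with Il1b, 90.04% and 95.88%, was 93.14% and 97.06% without thinning and 94.2% and 97.22% at 2000 UMIs.

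The sign changes, as log2 differences, were these. Il1rn in dendritic-like cells at ZT16 was 2.54 on day 1 against day 0 (-0.62 at resolution 0.5, -0.49 at 2.0) and 1.72 on day 3 against day 0 (-1.30 and -1.98). Il1b in mural-like cells on day 3 against day 1 was -1.17 at ZT4 (0.22 with doublets kept) and 2.04 at ZT16 (-0.75 with doublets kept, -0.027 by mean per-cell CPM). Between collection times, Il1b was -1.24 in fibro-adipogenic-like cells on day 1 (0.27 with doublets kept, 1.51 with free RNA subtracted, 0.079 by mean per-cell CPM), -2.69 in mural-like cells on day 1 (0.34 with doublets kept) and 2.58 in endothelial-like cells on day 3 (-0.25 with doublets kept, -0.12 by mean per-cell CPM). Il1rl1 in T cell-like cells on day 3 was -2.71 (1.04 at resolution 0.5).

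Chosen after seeing the data were the whole libraries without shared barcodes (6 instead of 7 genes on day 3 against day 0 at ZT4, and the same counts elsewhere), Il1rl1 without its highest cell, and the stricter mast cell limit. Depth limits what can be said of Il1a outside myeloid cells and of day 1 stromal cells.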
